A study of Mus musculus with 8 samples.

Results

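The miRNAs miR-21a-5p, miR-146a-5p, miR-146b-5p and miR-155-5p were followed in mouse plasma after treatment with an anticancer drug. These 4 members were taken from the 1881 mouse miRNAs on the array by their name in the scanner files. They were chosen with earlier results of these data known. All groups were female NMRI mice, an outbred laboratory stock, aged 3 months. Doxorubicin (DOX), an anthracycline that damages DNA, was injected into a tail vein on alternate days, in 4 doses of 3 mg/kg each. Imatinib (IMB), a tyrosine kinase inhibitor, was given by mouth at 100 mg/kg every day for 9 days. Control mice (CTRL) received the solvents of the drugs. Plasma was taken on the day after the last dose, and each array held the RNA of 1 pool, made from 3 mice and extracted from 300 µl of plasma. There were 3 DOX pools, 3 IMB pools and 2 CTRL pools, 8 arrays in all on 1 slide. The labels name no tumour or other disease in the mice, and a pool hides the spread between its mice.

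A miRNA is a short RNA that guides a silencing complex to messenger RNAs, mostly through its seed, the bases 2 to 8 from its 5′ end. MiR-146a, miR-146b and miR-155 are induced by Toll-like receptor and NF-κB signalling in immune cells. The miR-146 pair is known to restrain that signalling by targeting its adaptors Traf6 and Irak1, and miR-155 to favour inflammatory responses by targeting brakes such as Socs1. MiR-21 is abundant in many tissues, rises in inflammation, fibrosis and many tumours, and is known to target Pdcd4. Plasma carries miRNAs released by blood cells, platelets and tissues, so more releasing cells and more release per cell cannot be told apart in these arrays.

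The mature sequences are shown because the members differ in how far their seeds and their close paralogs could share a signal. They are taken from RefSeq on build GRCm38.p6, where all 4 members matched by name, with the seed in capitals.
mmu-miR-21a-5p: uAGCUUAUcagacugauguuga
mmu-miR-21c: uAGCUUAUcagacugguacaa
mmu-miR-21b: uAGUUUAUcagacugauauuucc
mmu-miR-146a-5p: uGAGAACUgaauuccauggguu
mmu-miR-146b-5p: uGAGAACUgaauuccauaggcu
mmu-miR-155-5p: uUAAUGCUaauugugauaggggu
MiR-21a-5p lies at chr11:86584120-86584141 on the minus strand, within the span of Vmp1, and miR-146a-5p at chr11:43374435-43374456 on the minus strand, within no other gene of the table. MiR-146b-5p lies at chr19:46342790-46342811 on the plus strand, within Gm36493, and miR-155-5p at chr16:84714143-84714165 on the plus strand, within its host gene Mir155hg. Whether these positions are exonic or intronic was not analysed here.

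MiR-146a-5p and miR-146b-5p share the seed GAGAACU and are identical at 20 of 22 positions. Counted from 1 at the 5′ end, with the base of miR-146a-5p first, they differ by G18A and U21C. Of 1679 mature mouse miRNAs in the table, these 2 alone held that seed, and miR-155-5p was the 1 with the seed UAAUGCU. MiR-21a-5p shared AGCUUAU with miR-21c, from which it differs at 5 of 21 positions, all outside the seed (A16G, G18A, U19C, U20A and G21A, with the base of miR-21a-5p first). MiR-21b differs from miR-21a-5p at 4 of 22 positions, 1 of them in the seed (C4U).

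Each member was read by 2 probes with 15 spots each on every array, and no spot was saturated. Detection of a probe required more than 50% of its non-outlier spots to be well above background, and detection of a miRNA required 1 such probe. By that rule miR-21a-5p and miR-146a-5p were detected on all 8 arrays, with 236 of 236 and 232 of 232 kept spots well above background. MiR-155-5p was detected in 1 of 3 DOX pools, 3 of 3 IMB pools and 2 of 2 CTRL pools. MiR-146b-5p was detected in 0 of 3 DOX pools, 2 of 3 IMB pools and 2 of 2 CTRL pools. Over all mouse miRNAs, 258 to 279 were detected in DOX pools, 266 to 339 in IMB pools and 297 and 327 in CTRL pools. The calls alone do not show a lower level in DOX. After scaling for array brightness, the brighter miR-146b-5p probe was at 19.2 in DOX pool 3, not detected, and at 18.8 in CTRL pool 2, detected. Agilent's own detection call, which is more permissive, was positive for all 4 members on all 8 arrays. The members therefore fall into a bright pair with a measured level everywhere and a dim pair close to the background.

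The other arms and the paralogs were not seen. MiR-21a-3p, miR-21b, miR-21c, miR-146a-3p, miR-146b-3p and miR-155-3p were detected on 0 of 8 arrays, and none of their kept spots was well above background. The highest mean spot signal among their probes was 2.56, on a probe of miR-21b, in the units of the unscaled processed intensity.

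Whole-array brightness differed between pools. The 75th percentile of signal over the probes detected on all arrays was 213, 249 and 267 in DOX pools 1 to 3, 196, 425 and 320 in IMB pools 1 to 3, and 299.8 and 349 in CTRL pools 1 and 2. Signals were scaled to that percentile, averaged over the probes of a miRNA, raised to a floor of 20.9 where lower, and put on the log2 scale, and values at the floor have no order. Of the 1881 mouse miRNAs, 294 met the detection rule in all pools of 1 or more groups and entered a limma fit over all 8 arrays. All 4 members entered it, miR-146b-5p only through CTRL and miR-155-5p only through IMB and CTRL. A list of 7 red cell miRNAs had 6 detected on every array, and its summed scaled signal ranged from 18837 to 28182 in DOX, from 32782 to 41784 in IMB and from 23745 to 39142 in CTRL. Plasma has no cells of its own, and the part of red cell RNA in the members' values was not tested.

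MiR-21a-5p did not pass the test in any comparison. Its log2 scaled signal was 10.85, 11.31 and 11.57 in DOX pools 1 to 3, 11.32, 10.66 and 11.004 in IMB pools 1 to 3, and 11.35 and 11.52 in CTRL pools 1 and 2. The IMB pools all lay below both CTRL pools, while the DOX pools spanned them. Means were 11.24 ± 0.36 in DOX (SD, n = 3), 10.99 ± 0.33 in IMB (SD, n = 3) and 11.43 ± 0.12 in CTRL (SD, n = 2). The order of the means, from the lowest, was IMB, DOX and CTRL, and no 2 neighbours differed beyond their spread.

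In DOX against CTRL, the difference of miR-21a-5p was -0.19 (log2, SE 0.27, limma adjusted p 0.96), with a 95% interval from -0.86 to 0.48. In this comparison 1 of the 294 miRNAs, or 0.34%, passed an adjusted p of 0.05. In IMB against CTRL it was -0.44 (SE 0.27, limma adjusted p 0.76), with an interval from -1.11 to 0.23, where 3 of 294 miRNAs, or 1.02%, passed. Groups that do not overlap, with IMB lower, were found for 6.8% of the miRNAs tested. In IMB against DOX it was -0.25 (SE 0.24, limma adjusted p 0.79), with an interval from -0.85 to 0.35, and again 3 of 294, or 1.02%, passed. Each of the 3 intervals includes 0. With 8 arrays, differences within the interval of a comparison could not be told apart there.

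Both probes of miR-21a-5p moved together over the 8 arrays (Pearson r 0.99, Spearman rho 0.90, as a description, with the array's brightness scaled out). The brighter probe gave -0.44 in IMB against CTRL with no overlap and the dimmer one -0.43 with overlap. The spots of a probe on 1 array varied by 2.1% to 7.8% (SD over mean). Agilent's total signal, which is not scaled between arrays, was 593, 952 and 1218 in DOX pools, 752, 1329 and 991 in IMB pools, and 1179 and 2019 in CTRL pools. On that scale the groups overlapped in all 3 comparisons, with exact permutation p (2-sided) of 0.3, 0.3 and 0.6 for DOX against CTRL, IMB against CTRL and IMB against DOX, and 0.4, 0.4 and 0.6 after adjustment over 12 tests.

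The values within each row of the slide were uneven. Row 1 held the first DOX, IMB and CTRL pools and also the second DOX pool, and row 2 held the other 4 arrays. Within row 1, miR-21a-5p in IMB was -0.03 from CTRL, and within row 2 it was -0.69, with 1 CTRL pool in each row. In DOX the difference from CTRL was -0.27 in row 1 and 0.04 in row 2. With DOX pool 1 left out, the DOX difference was 0.0035 (limma adjusted p 1), so that the negative value rests on that pool. The IMB difference from CTRL was -0.60 without IMB pool 1 and -0.28 without IMB pool 2, and that from DOX was -0.44 without DOX pool 1 and -0.084 without IMB pool 2. With slide row as a block, the IMB difference was -0.45 (limma adjusted p 0.69), close to that without it. A list of 5 platelet and myeloid miRNAs had 3 detected on every array. Its summed scaled signal was 1741 to 1999 in DOX, 1176 to 1588 in IMB and 1519 to 1919 in CTRL. MiR-223-3p, the brightest of these, made up most of that sum. In DOX against CTRL miR-223-3p differed by 0.21, but miR-142a-3p and miR-142a-5p by -0.35 and -0.27. In IMB against CTRL they differed by -0.27, -0.21 and -0.39, in that order. The part of these miRNAs in the miR-21a-5p values was not tested.

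MiR-146a-5p also passed in no comparison when all arrays were used. Its log2 scaled signal was 6.91, 6.89 and 7.01 in DOX pools 1 to 3, 7.32, 6.39 and 6.59 in IMB pools 1 to 3, and 7.16 and 7.07 in CTRL pools 1 and 2. The DOX pools lay close together and just below both CTRL pools, and the IMB pools held both the highest and the lowest values of the 8 arrays. Means were 6.94 ± 0.06 in DOX (SD, n = 3), 6.77 ± 0.49 in IMB (SD, n = 3) and 7.12 ± 0.06 in CTRL (SD, n = 2). From the lowest, the means ran IMB, DOX and CTRL. The DOX and IMB pools overlapped, and so did the IMB and CTRL pools.

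In DOX against CTRL, miR-146a-5p differed by -0.18 (log2, SE 0.27, limma adjusted p 0.96), with a 95% interval from -0.86 to 0.50. Its groups did not overlap, which held with DOX lower for 9.86% of the miRNAs tested. In IMB against CTRL it differed by -0.35 (SE 0.27, limma adjusted p 0.81), with an interval from -1.03 to 0.33, and in IMB against DOX by -0.17 (SE 0.24, limma adjusted p 0.89), with an interval from -0.78 to 0.43.

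These last 2 values depended on IMB pools 1 and 2. Without IMB pool 1, miR-146a-5p was lower in IMB than in CTRL, with a difference of -0.63 (SE 0.09, limma adjusted p 0.041), and lower in IMB than in DOX, with one of -0.45 (SE 0.08, limma adjusted p 0.049). In that fit 12 of 294 miRNAs (4.08%) passed in IMB against CTRL and 20 (6.8%) in IMB against DOX. Without IMB pool 2 instead, IMB against CTRL was -0.16 (limma adjusted p 1) and IMB against DOX was 0.019 (limma adjusted p 1). Within slide row 1, which holds IMB pool 1, miR-146a-5p was 0.16 higher in IMB than in CTRL, and within row 2 it was -0.58. Against DOX the values were 0.42 in row 1 and -0.52 in row 2, while DOX against CTRL was -0.26 in row 1 and -0.06 in row 2.

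Lymphocyte miRNAs had the same order as miR-146a-5p over the IMB pools, but not over the DOX pools. The list of 3, miR-150-5p, miR-342-3p and miR-181a-5p, had a summed scaled signal of 470, 411 and 372 in DOX pools, 684, 291 and 315 in IMB pools, and 581 and 452 in CTRL pools. IMB pool 1 was again the highest array, and IMB pools 2 and 3 were the lowest. MiR-150-5p, a miRNA of mature lymphocytes, stood at 8.98 in IMB pool 1 and at 7.70 and 7.79 in IMB pools 2 and 3 (log2 scaled signal). MiR-181a-5p was detected on 2 arrays and lay at the floor on all 8. The part of lymphocyte RNA in the miR-146a-5p values was not tested.

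The 2 probes of miR-146a-5p followed each other (Pearson r 0.99, Spearman rho 1, 8 arrays, description only), and both put DOX below CTRL without overlap, by -0.19 and -0.14. The scaled Agilent total overlapped, with 62.9 in DOX pool 3 and 61.7 in CTRL pool 2. Agilent's unscaled total was 38.5, 44.5 and 51.8 in DOX pools, 47.2, 68.6 and 46.6 in IMB pools, and 64.8 and 92.4 in CTRL pools. All DOX pools lay below both CTRL pools on that scale, with an exact permutation p of 0.1 (2-sided), the smallest that 3 pools against 2 allow, and 0.24 after adjustment over 12 tests. On that unscaled scale 59.9% of the 294 miRNAs were lower in DOX without overlap, so this order is shared with most of the array.

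**Figure D1:**
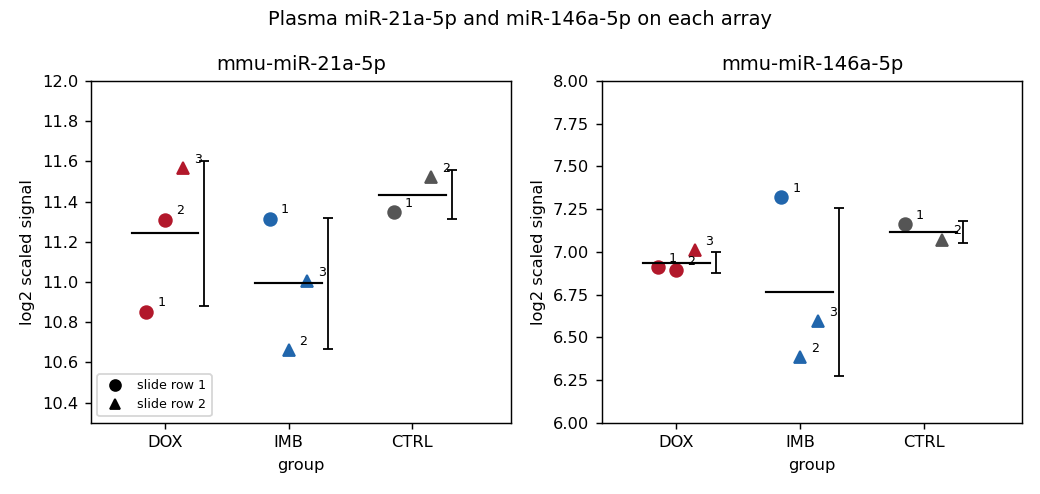
Log2 scaled signal of miR-21a-5p (left) and miR-146a-5p (right) on each array, by group, with pool numbers beside the points. Circles lie in slide row 1 and triangles in row 2, lines are group means and error bars are SDs; the axes do not start at 0. The IMB pools of miR-146a-5p run from 6.39 to 7.32 and enclose every DOX and CTRL pool.

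**Figure D2:**
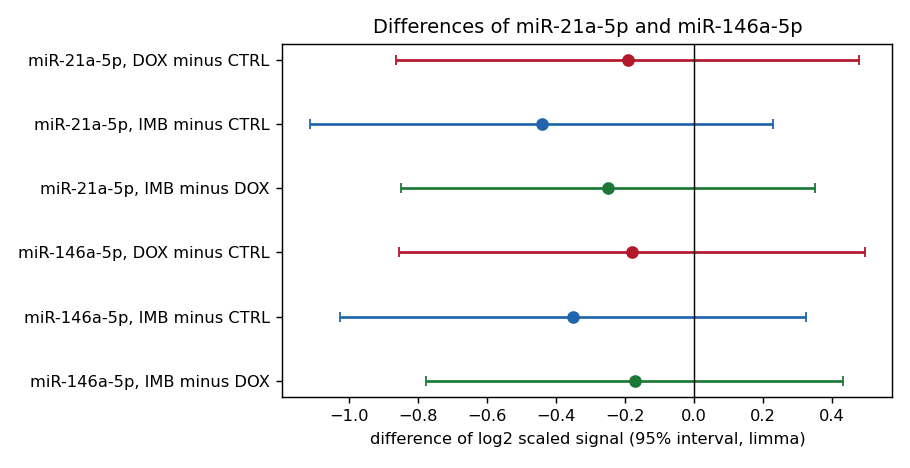
Difference of log2 scaled signal for miR-21a-5p and miR-146a-5p in 3 comparisons, as points with 95% intervals from the limma fit over 8 arrays. All 6 points lie below 0, from -0.44 to -0.17, and all 6 intervals include 0.

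MiR-155-5p gave a signal near the background, and its values have to be read probe by probe. The scaled signal of its brighter probe, on the linear scale, was 20.3, 23.5 and 21.6 in DOX pools 1 to 3, 36.3, 20.7 and 26.4 in IMB pools 1 to 3, and 37.5 and 24.6 in CTRL pools 1 and 2. All 3 DOX pools lay below both CTRL pools, and IMB pool 1 and CTRL pool 1 were the highest. Groups that do not overlap, with DOX lower, were found for 13.9% of the 294 miRNAs when each was read by its brighter probe. The number of that probe's kept spots well above background was 2, 9 and 6 of 15 in DOX pools. It was 14 of 14, 15 of 15 and 15 of 15 in IMB pools and 15 of 15 in both CTRL pools. The spots of this probe varied by 12.5% to 21.4% on 1 array.

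In the fit with the floor, miR-155-5p lay at the floor on 6 of 8 arrays, so its differences there (-0.19 in DOX against CTRL, -0.10 in IMB against CTRL and 0.09 in IMB against DOX) say little of its level. Without CTRL pool 1 the DOX difference there was 0, and without CTRL pool 2 it was -0.39. With the brighter probe and a floor 4 times lower, a setting chosen after seeing the values at the floor, the difference was -0.48 in DOX against CTRL (SE 0.26, limma adjusted p 0.57). It was -0.17 in IMB against CTRL (SE 0.26, limma adjusted p 0.88) and 0.32 in IMB against DOX (SE 0.24, limma adjusted p 0.66). None of these passed the test, which 2 of the 294 miRNAs (0.68%), 4 (1.36%) and 7 (2.38%) did under that setting. The p-values with DOX are descriptions, not tests, since miR-155-5p entered the fit only through IMB and CTRL.

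Agilent's total signal gave a larger DOX difference for miR-155-5p. Unscaled, it was 3.25, 4.40 and 4.34 in DOX pools, 5.35, 12.8 and 9.22 in IMB pools, and 12.4 and 12.2 in CTRL pools. DOX pools were below every IMB and CTRL pool. The exact permutation p (2-sided) was 0.1 for DOX against CTRL and 0.1 for IMB against DOX, each 0.24 after adjustment over 12 tests. Both are the smallest that these group sizes allow. It was 0.4 for IMB against CTRL (0.44 adjusted). With DOX lower, 59.9% of all miRNAs tested did not overlap on this scale, and with IMB higher than DOX, 11.2%. After scaling, the total was 4.67, 4.89 and 5.27 in DOX pools, 8.09, 6.89 and 8.54 in IMB pools, and 12.6 and 8.15 in CTRL pools. The scaled difference was -1.03 in DOX against CTRL (SE 0.21, limma adjusted p 0.083) and 0.66 in IMB against DOX (SE 0.19, limma adjusted p 0.21). These differences and the p-values with DOX are descriptions, not tests, since miR-155-5p entered the fit only through IMB and CTRL, where it was detected. Both comparisons were without overlap, as were 17% of the miRNAs with DOX below CTRL and 8.84% with IMB above DOX.

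The number of probes behind that total was not the same on every array. The total equals the sum of both probes of miR-155-5p, within 0.5%, in IMB pools 2 and 3 and in CTRL pools 1 and 2. In DOX pools 1 to 3 and in IMB pool 1 it equals the brighter probe alone. The dimmer probe had 1, 1, 5 and 1 kept spots well above background on the arrays where it was counted, in the order named, and 0 on each of the others. Read through the brighter probe alone, the same unscaled quantity was 3.25, 4.40 and 4.34 in DOX pools, 5.35, 8.48 and 6.37 in IMB pools, and 8.48 and 8.44 in CTRL pools. On this unscaled scale every DOX pool was below every IMB and CTRL pool, with smaller gaps to the CTRL pools. For the unscaled total, 59.9% of the miRNAs were lower in DOX than in CTRL without overlap, and 11.2% higher in IMB than in DOX. After scaling, this probe put IMB pool 2, at 20.7, within the DOX range of 20.3 to 23.5. The factor from mean spot signal to total also varied, being 0.212 on 6 arrays, 0.271 in IMB pool 2 and 0.277 in CTRL pool 2. In the authors' deposited table miR-155-5p differed by -0.90 in DOX against CTRL (log2, SE 0.25, limma adjusted p 0.36). Its groups there did not overlap, as for 17.7% of the miRNAs with DOX lower. This value is a description too.

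MiR-146b-5p was not detected in any DOX pool. Its brighter probe had a scaled signal of 16.6, 18.8 and 19.2 in DOX pools, 29.0, 15.9 and 17.9 in IMB pools, and 29.6 and 18.8 in CTRL pools. The groups overlapped in all comparisons, and IMB pool 1 and CTRL pool 1 stood above the other arrays. Both lie in slide row 1, as do DOX pools 1 and 2, which did not stand out. Before scaling, this probe read 20.2 in IMB pool 1 and 24.0 in IMB pool 2. Its kept spots well above background were 0 of 15, 2 of 14 and 4 of 15 in DOX pools, 11, 13 and 7 of 15 in IMB pools, and 15 of 15 and 14 of 14 in CTRL pools. Its second probe had none on any array. As this miRNA was not well above background in any DOX pool, its DOX level is only bounded. By means, CTRL was 1.02-fold above the DOX bound. The mean was log2 4.56 measured in CTRL, against a bound of 4.52 and a measured 4.18 in DOX. This ratio makes no allowance for the spread of the pools. It rests on CTRL pool 1, since CTRL pool 2, at log2 4.23, lies below the bound. The DOX and CTRL values of this miRNA are descriptions, since it entered the fit only through CTRL. In the fit with the floor all 8 arrays are at the floor (limma adjusted p 1), and with the brighter probe and the lower floor the difference was -0.38 (SE 0.28, limma adjusted p 0.72). Each bound here is the higher, per array, of the lowest signal among probes well above background and the probe's own signal. Against IMB no fold is given, since the bound exceeds the IMB mean.

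Agilent's unscaled total for miR-146b-5p was 2.66, 3.51 and 3.85 in DOX pools, 4.28, 6.51 and 4.32 in IMB pools, and 6.68 and 6.45 in CTRL pools. Its software counted 1 probe on every array. DOX pools were below all IMB and CTRL pools (exact permutation p 0.1 for DOX against CTRL and for IMB against DOX, each 0.24 adjusted over 12 tests). A p of 0.1 is the smallest that these group sizes allow. On this scale 59.9% of miRNAs were lower in DOX than in CTRL without overlap, and 11.2% were higher in IMB than in DOX. The p-values with DOX here and below are descriptions, not tests, since miR-146b-5p entered the fit only through CTRL. After scaling, the totals overlapped, and the difference was -0.39 in DOX against CTRL (SE 0.30, limma adjusted p 0.67). In the authors' deposited table the DOX difference had the other sign, 0.33 (SE 1.01, limma adjusted p 0.96), and IMB pool 2 was at -0.78 beside 2.72 and 2.0 in IMB pools 1 and 3.

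**Figure D3:**
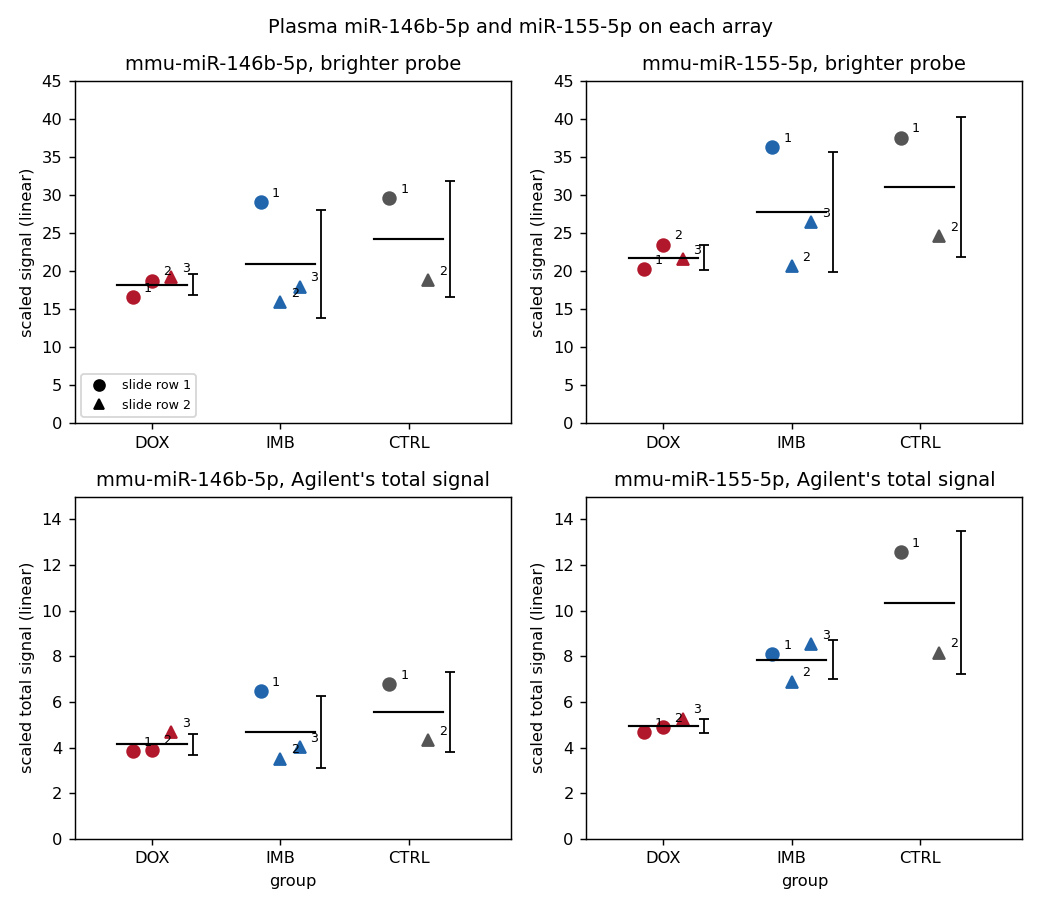
Scaled signal of the brighter probe (top) and scaled Agilent total signal (bottom) of miR-146b-5p and miR-155-5p on each array, on linear axes from 0. Points are pools with their numbers, circles in slide row 1 and triangles in row 2; lines are means and error bars SDs. The total of miR-155-5p puts DOX at 4.67 to 5.27, below every IMB and CTRL pool, while the brighter probe puts DOX at 20.3 to 23.5 and IMB pool 2 among them at 20.7.

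**Figure D4:**
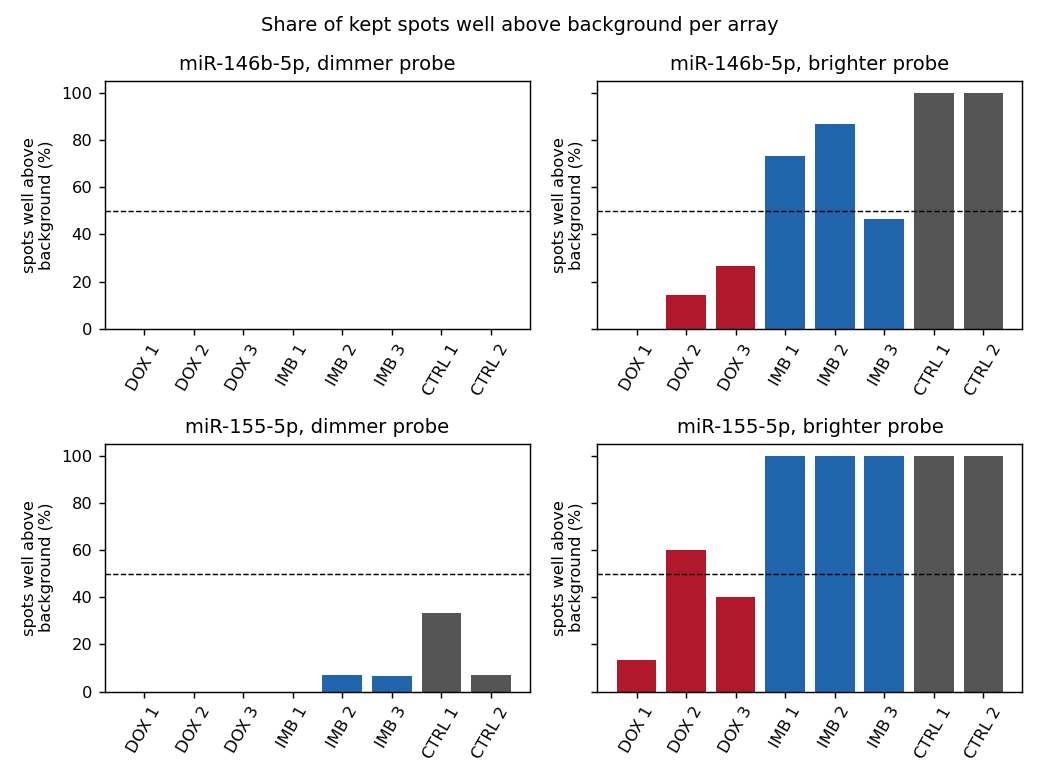
Percentage of kept spots well above background for both probes of miR-146b-5p and miR-155-5p on each array, with the 50% needed for detection as a dashed line. The brighter probe of miR-155-5p is at 100% in all IMB and CTRL pools and above the line in 1 of 3 DOX pools. Over all mouse miRNAs, 258 to 279 were detected in DOX pools, 266 to 339 in IMB pools and 297 and 327 in CTRL pools.

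The members did not all share 1 pattern over the arrays. MiR-21a-5p and miR-146a-5p had a Pearson r of 0.75 (8 arrays). The brighter probes of miR-146b-5p and miR-155-5p had a Pearson r of 0.95 and a Spearman rho of 0.76 (8 arrays). IMB pool 1 and CTRL pool 1 were the highest arrays for both probes. The brighter probes of miR-146a-5p and miR-146b-5p, miRNAs identical at 20 of 22 positions, had a Pearson r of 0.79 and a Spearman rho of 0.88. Whether the miR-146b-5p probe also read miR-146a-5p was not tested. These correlations are descriptions over arrays that share the scaling. Among 240 candidate miRNAs detected on all arrays, the patterns most like that of miR-21a-5p were those of miR-29a-3p (r 0.98), miR-142a-5p (r 0.96) and miR-362-3p (r 0.95). The patterns most like that of miR-146a-5p were those of miR-342-3p, a member of the lymphocyte list (r 0.96), miR-19b-3p (r 0.96) and miR-328-3p (r 0.93). The median r over the candidates was 0.06 for miR-21a-5p and 0.14 for miR-146a-5p. MiR-342-3p was at 6.83, 6.67 and 6.70 in DOX pools, 7.39, 6.21 and 6.34 in IMB pools, and 7.18 and 6.93 in CTRL pools.

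Of 26 other miRNAs linked to inflammation, 16 entered the fit and none passed the limma test in any comparison. At an unadjusted limma p under 0.05 there were 2 in DOX against CTRL (25 of all 294, 8.5%), 1 in IMB against CTRL (23 of 294, 7.82%) and 2 in IMB against DOX (32 of 294, 10.9%). The median difference of the 16 was 0.02 in DOX against CTRL, -0.10 in IMB against CTRL and 0 in IMB against DOX, beside 0, 0.01 and 0 over all 294. In DOX, 8 of the 16 were higher and 5 lower than in CTRL, beside 143 and 120 of all 294. In IMB, 3 were higher and 11 lower than in CTRL, beside 151 and 115 of all 294. In IMB against DOX, 7 were higher and 7 lower, beside 122 and 145.

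MiR-212-3p, from a cluster with miR-132-3p that CREB induces, was at 5.47, 5.56 and 5.64 in DOX pools, 5.19, 5.70 and 6.04 in IMB pools, and 4.63 and 5.04 in CTRL pools. Every drug pool lay above both CTRL pools, as 18.7% of the 294 miRNAs did in DOX and 10.9% in IMB. The difference was 0.72 for DOX (SE 0.26, limma adjusted p 0.48) and 0.80 for IMB (SE 0.26, limma adjusted p 0.41), and both comparisons share the CTRL pools. MiR-301a-3p, known to raise NF-κB activity, differed by -0.29 in DOX against CTRL (SE 0.10, limma adjusted p 0.48) and by -0.25 in IMB against CTRL (SE 0.10, limma adjusted p 0.59). MiR-223-3p, abundant in neutrophils and platelets, was at 10.64, 10.64 and 10.75 in DOX pools, 10.39, 9.96 and 10.26 in IMB pools, and 10.72 and 10.22 in CTRL pools. It was lower in each IMB pool than in each DOX pool, with a difference of -0.48 (SE 0.17, limma adjusted p 0.36), and so was miR-221-3p, with one of -0.34 (SE 0.12, limma adjusted p 0.38). Such an order, with IMB below DOX, held for 8.16% of the miRNAs tested. The other 12 ranged from -0.35 to 0.44 in DOX against CTRL and from -0.39 to 0.10 in IMB against CTRL. In IMB against DOX they ranged from -0.51 for miR-126a-3p, an endothelial miRNA (SE 0.25, limma adjusted p 0.49), to 0.24 for miR-210-3p. MiR-181d-5p and miR-511-3p lay at the floor on all arrays, and miR-132-3p, of the cluster with miR-212-3p, on 7 of 8.

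**Figure D5:**
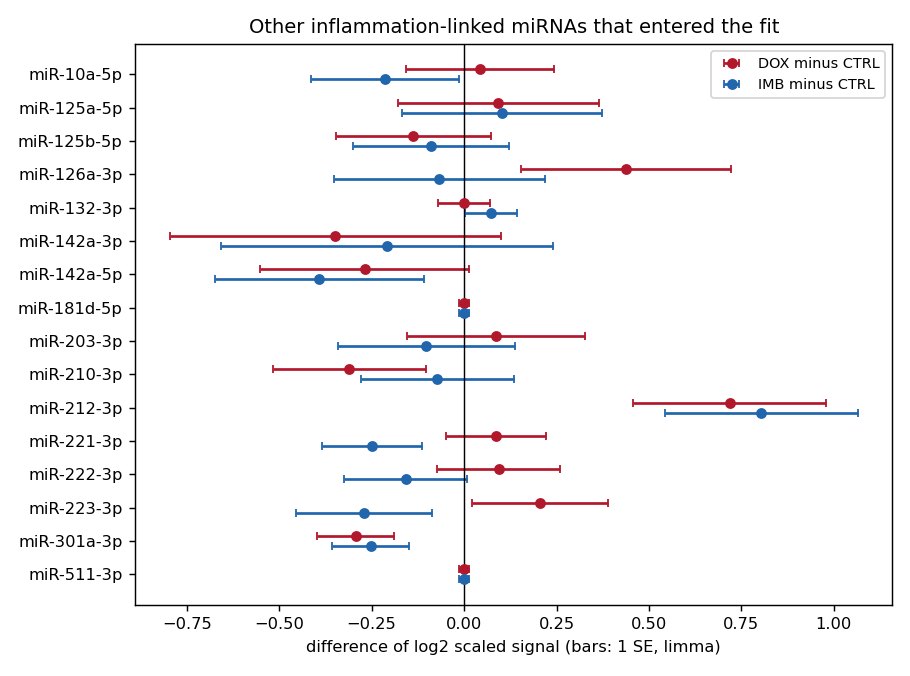
Difference of log2 scaled signal from CTRL for the 16 other inflammation-linked miRNAs in the fit, in DOX and in IMB, with bars of 1 SE from the limma fit. MiR-212-3p lies farthest to the right in both, at 0.72 and 0.80, and none of the 16 passed the test.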

How the data were processed

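Plasma RNA was hybridised to 1-colour Agilent miRNA arrays. The deposited scanner files hold spot intensity, which the authors extracted, per the submitters' processing notes, in Agilent Feature Extraction (version 11.5.1.1). Processed intensity is background-subtracted and not scaled between arrays, per the file headers. A table deposited by the authors holds log2 values, but no source used here states how they were scaled or centred.

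Intensities were averaged per probe without outlier spots. Array signals were divided by a factor that equalised the 75th percentile of the 454 probes detected on each array. MiRNA values were means of their probes, raised to the floor (the 1st percentile of detected probes, as its median across arrays) before taking log2. Group differences came from limma 3.58.1 (lmFit, eBayes, 2-sided tests, R 4.3.3) with Benjamini-Hochberg adjustment over 294 miRNAs per comparison, and the fit used all 8 arrays. The labels call pools biological replicates. Unscaled totals were tested by exact permutation. The number of arrays limits the precision. The steps were tested on simulated data. Members, lists and named miRNAs (every member, its arms and paralogs, the inflammation list, and for members detected on all arrays the 3 most correlated miRNAs) were chosen with earlier results of these data known. The alternatives tried are named in the closing section. Figures were drawn with matplotlib 3.10.9.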

Additional observations from a re-analysis of the deposited data

How the results depend on the processing

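The members' differences were recomputed under other signals, backgrounds, scalings, filters, floors, probe summaries, variance models, blocks and subsets of arrays. MiR-21a-5p, miR-146b-5p and miR-155-5p passed in none of these, and miR-146a-5p passed in 2 of 84 values, both without IMB pool 1. The cause of the changes below was not tested.

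Signs changed as follows. In IMB against DOX, miR-21a-5p was 0.057 without scaling and 0.13 with the mean of 2 reference miRNAs (miR-24-3p and miR-23a-3p) as the scale, and miR-146a-5p was 0.14 and 0.21 under these settings. With normexp background correction, which here started from the median spot signal and so changed the signal as well, miR-155-5p was 0.023 in DOX against CTRL and 0.065 in IMB against CTRL.

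The number of the 294 miRNAs that passed, in DOX against CTRL, was 2 with Agilent's total signal, the authors' deposited table, a 75th percentile over all probes, a floor 4 times lower, and the brightest probe with that floor, a setting chosen after seeing the data. It was 0 with the compared groups alone and with no filter on dim miRNAs, which raised the number tested to 1881. In IMB against CTRL it was 1 with the total signal, the authors' deposited table, a floor 4 times lower or 2 times higher, or scaling to the median. It was 0 without scaling, with the percentile over all probes, with the 2 reference miRNAs as the scale, or with no filter. In IMB against DOX it was 5 with the total signal or the lower floor, 6 with the mean of the probes' log2 values and 7 with the brightest probe and the lower floor.

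With 1 array left out at a time, the number of miRNAs past the threshold ran from 0 (without CTRL pool 1) to 2 in DOX against CTRL, from 0 (without IMB pool 2 or 3) to 12 in IMB against CTRL and from 3 to 20 in IMB against DOX, both maxima without IMB pool 1. MiR-21a-5p ran from -0.35 to 0.0035 in DOX against CTRL, from -0.60 to -0.28 in IMB against CTRL and from -0.44 to -0.084 in IMB against DOX. MiR-146a-5p ran from -0.63 to -0.16 in IMB against CTRL and from -0.45 to 0.019 in IMB against DOX. MiR-155-5p ran from -0.39 to 0 in DOX against CTRL and from -0.30 to 0.089 in IMB against CTRL, both highest without CTRL pool 1.

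Pools with the same replicate number did not deviate together (correlations from -0.24 to 0.40 over the 7 pairs), so the numbers were not taken as pairing. With the replicate block, 0, 2 and 4 miRNAs passed in DOX against CTRL, IMB against CTRL and IMB against DOX, and no member did. Signal over background limits miR-146b-5p and miR-155-5p, whose probes lay close to the background, more than the other members.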
